A study of Mus musculus with 4 samples.

Results

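The genes described here encode protein tyrosine phosphatases and dual-specificity phosphatases. A gene was a member when the platform annotation gave its probe set a single symbol that began with Ptpr (receptor phosphatases, without Ptprcap, which is no phosphatase), with Ptpn (non-receptor phosphatases), or with Dusp and a digit (dual-specificity phosphatases). This gave 61 of the 19938 named genes on the array, 20 receptor, 17 non-receptor and 24 dual-specificity genes. The data were 1-colour Affymetrix arrays of mouse bone marrow cells of the C57BL/6J strain, grown for 7 days in a growth factor and then sorted. The submitters' M1 group was cultured in granulocyte-macrophage colony-stimulating factor (GM-CSF). From that mixed culture, cells carrying CD45, MHC class II and the macrophage protein encoded by Adgre1, but not CD8a, were collected. Their M2 group was cultured in macrophage colony-stimulating factor (M-CSF), given as 20% supernatant of the L929 fibroblast line, and cells carrying CD45, CD11b and the Adgre1 protein were collected. Each group had 2 arrays, 4 in all, and every difference below is the GM-CSF M1 mean minus the M-CSF M2 mean on the log2 scale. The factor, the supernatant and the gate all changed between groups and cannot be told apart. Nothing in the labels ties the replicates to separate animals or cultures, so each p-value reflects the spread among these 4 arrays only, and between the M-CSF arrays it may be technical.

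Tyrosine phosphatases remove phosphate from tyrosine and so oppose tyrosine kinases. Receptor members span the cell membrane, many with cell-adhesion domains outside the cell, while non-receptor members are brought to their substrates by other domains. Most dual-specificity members act on phosphotyrosine and on phosphoserine or phosphothreonine, and those called MAP kinase phosphatases switch off ERK, JNK and p38. In macrophages they are known to act on M-CSF receptor signalling, which starts at a receptor tyrosine kinase, and on GM-CSF receptor signalling, which runs through JAK2 and STAT5.

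The arrays were not equally alike. GM-CSF replicate 1 read 11.58 for Xist and 3.66 for the Y-linked Eif2s3y, against 4.53 to 4.93 and 9.10 to 9.32 on the other 3 arrays, so it stood apart from them. Xist is expressed from the inactive X chromosome of female cells, so the GM-CSF pair differed in sex-linked expression and was not a repeat of one RNA. The part of this difference in the results below was not tested. The log2 difference within a pair had an SD of 0.325 for GM-CSF and 0.1798 for M-CSF over 14995 genes. In a fit without 1 array, the spread comes only from the group that keeps both arrays. Passing a threshold without a GM-CSF array therefore adds no weight. Missing it without an M-CSF array can reflect the wider GM-CSF spread. All 8 macrophage markers measured, Adgre1 and Csf1r among them, lay above the background bound in both groups, and Cd14 was higher in GM-CSF cells (1.66). That bound, 5.90, is the mean over arrays of the 95th percentile of 1027 olfactory receptor genes. Both groups were sorted for the Adgre1 protein and the M-CSF group also for CD11b, the product of the marker Itgam. The presence of Adgre1 and Itgam is therefore no independent result. Of 8 dendritic cell markers, Clec9a (log2 difference 2.44) and Ccr7 (1.16) were higher in GM-CSF cells, though the M-CSF mean of Clec9a lay within background, and Clec9a did not pass without M-CSF replicate 1 or 2 (adjusted p = 0.0602 and 0.0742 with limma) and Ccr7 not without M-CSF replicate 1 (0.0945). Above the bound were 4 of the 8 in the GM-CSF group and 2 in the M-CSF group, with the list's mean level at 5.98 to 6.15 and 5.55 to 5.62. Flt3 and Xcr1, which mark dendritic cells, were within the background range in both groups. The B cell gene Cd79b was lower in GM-CSF cells (-2.36) while Cd79a and Ms4a1 were within background in both, and that list's mean level was 5.61 to 5.78 and 6.47 to 6.50. The granulocyte list had mean levels of 6.01 to 6.41 and 5.98 to 6.06. Within it Mpo was lower in GM-CSF cells (-0.64, adjusted p = 0.0132 with limma), with its GM-CSF mean within background. S100a8 read 8.54 on GM-CSF replicate 1 against 7.04 on GM-CSF replicate 2 and 6.96 and 6.84 on the M-CSF arrays, and Ly6g differed by 1.02 without passing (0.082) and with both means within background. The T and NK cell list 4.89 to 4.95 and 4.76 to 4.85, and the mast cell list 4.64 to 4.93 and 4.64 to 4.71. The erythroid list had 5.84 to 5.92 and 5.79 to 5.85, and the fibroblast list 6.07 to 6.15 and 6.04 to 6.05. In the fibroblast list Dcn was higher in GM-CSF cells (7.63 and 6.94 against 6.42 and 6.03, adjusted p = 0.0465 with limma), while Col1a1 (-0.29), Col1a2 (-0.16), Col3a1 (-0.10) and Pdgfra (-0.29) did not pass. Neither Mpo (0.16 and 0.163) nor Dcn (0.202 and 0.318) passed without M-CSF replicate 1 or replicate 2. The part of other cells in the results below was not tested.

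Most phosphatase genes, like most genes on the array, differed little between the groups, and a few stood apart. Ptprm was much lower in GM-CSF cells, and Ptpre, Ptpn3, Ptpn12, Dusp6 and Dusp4 were higher. Of the 61 members, 52 passed the filter on dim genes and were tested, and 6 of these passed at an adjusted p under 0.05 (limma, Benjamini-Hochberg over all genes tested), 5 higher and 1 lower. That is 11.5% of the members tested, against 10.7% of all genes tested (6.18% higher and 4.53% lower), so the members were called about as often as other genes. Of the members tested, 2 were both called and at least 2-fold apart, Ptprm and Ptpre, against 4.23% of all genes tested. With no filter all 61 were tested and 5 passed, 4 higher and 1 lower, against 6.76% of all genes. In 51 of the 61 the difference was smaller than 0.5 on the log2 scale, as it was in 17768 of all 19938 genes. The median absolute difference was 0.152, against 0.139 over all genes. The median difference was 0.032, against -0.020 over all genes. The arrays of the groups did not overlap in 26 of the 52 tested members, against 55.4% of all genes tested. In 17 of them the GM-CSF arrays were higher (26.3% of all genes) and in 9 lower (29.2%). In 44 of the 46 members that did not pass, the 95% interval of the difference lay within 1 log2 unit of 0 on both sides, so a change of 2-fold or more lay outside it. The 9 untested members were Ptprb, Ptprd, Ptprr, Ptprz1, Ptpn13, Ptpn20, Dusp15, Dusp21 and Dusp27. They and 4 tested members had both group means within the background range, where no level can be read.

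**Figure D1:**
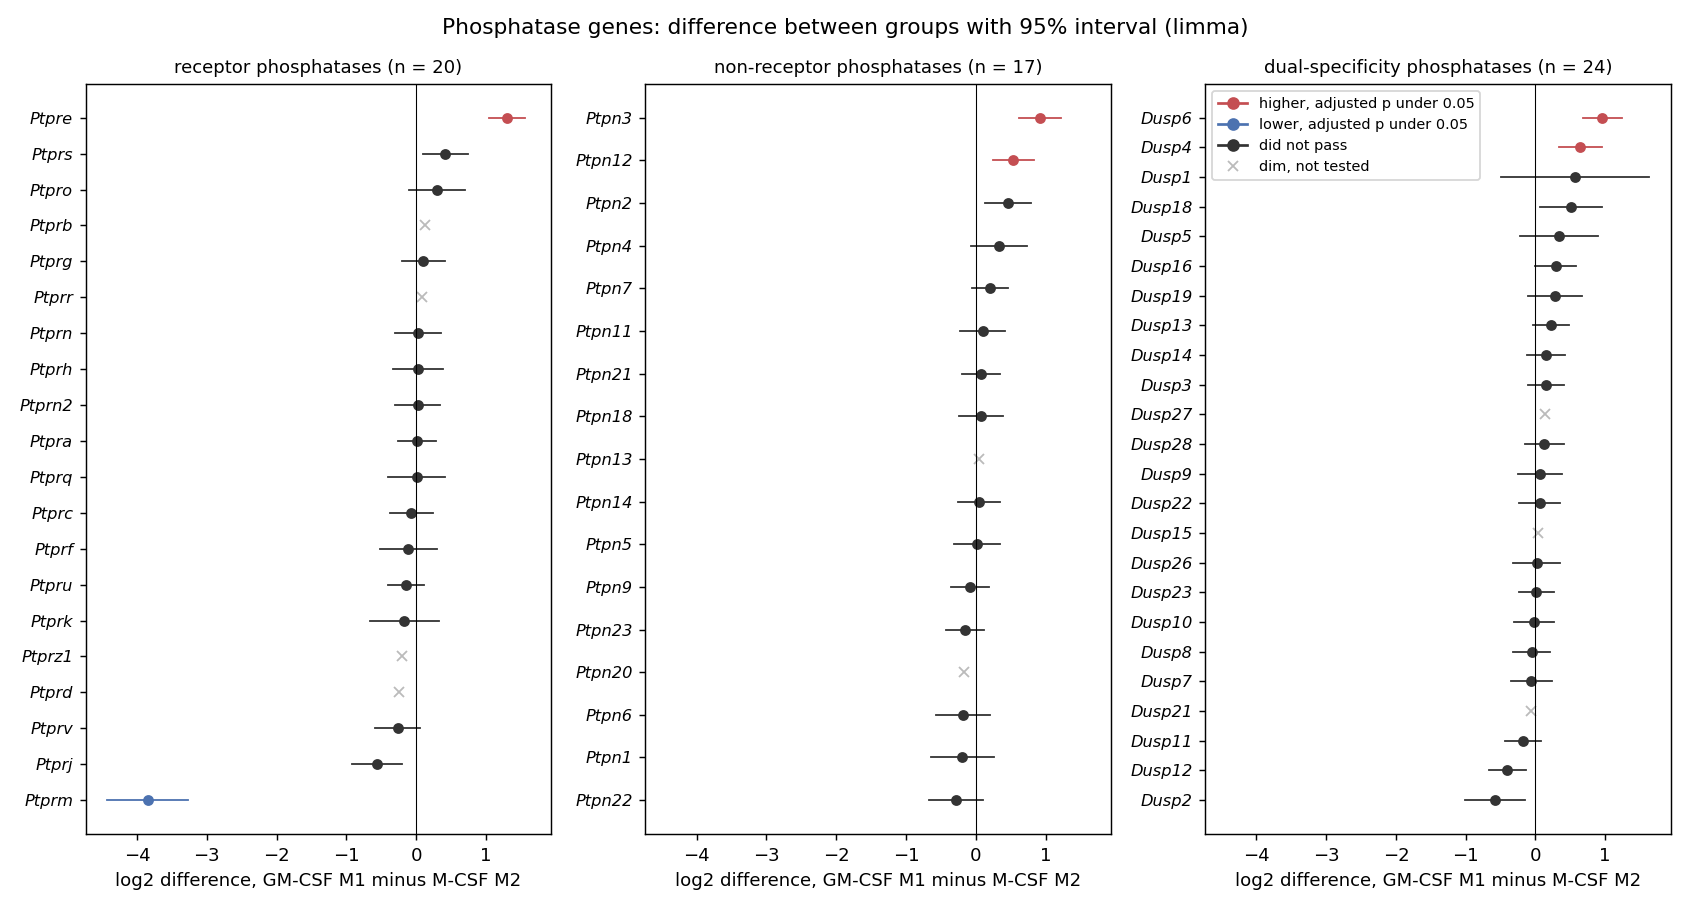
Log2 difference (GM-CSF M1 minus M-CSF M2, x axis) of the 61 phosphatase genes in 3 panels by class, with points for the difference of means (n = 2 arrays per group), lines for the 95% interval of the limma fit, and crosses for the 9 genes too dim to be tested. Ptprm (-3.85) lies far to the left of all other genes shown, and Ptpre (1.30) is the rightmost.

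Among the receptor phosphatases, Ptprm was lower and Ptpre higher in GM-CSF cells, and 14 of the 16 tested did not pass. Ptprm encodes a phosphatase of the MAM type, whose outer part binds the same protein on the neighbouring cell. It read 6.74 and 7.50 on the GM-CSF arrays and 10.97 and 10.96 on the M-CSF arrays. Every M-CSF value was more than 3 log2 units above every GM-CSF value, and the GM-CSF arrays were 0.76 apart. The difference was -3.85 ± 0.24 (SE, n = 2 per group, 95% interval -4.43 to -3.27, adjusted p = 0.000511 with limma), or 14.4-fold lower in GM-CSF cells. Leaving out GM-CSF replicate 1 gave -3.47 and leaving out GM-CSF replicate 2 gave -4.23, and it passed without each array in turn (adjusted p of up to 0.0323). In such mixed RNA, fewer cells with a transcript and less transcript per cell cannot be told apart. Ptprm is also known from endothelium. Of 5 endothelial markers, Tek and Emcn were within background in both groups, and Cdh5 read 5.59 and 5.70 against 6.01 and 5.93. Kdr ran the other way, at 7.36 and 6.81 against 5.48 and 5.26 (1.71) with its M-CSF mean within background, and did not pass without M-CSF replicate 1 (0.076) or 2 (0.0997). Tie1 was level, and the list's mean level was 5.49 to 5.55 and 5.25 to 5.28. Pecam1, which is not on that list but is known from endothelium among other cells, was lower in GM-CSF cells, with values given below. The part of endothelial cells in the Ptprm difference was not tested. The other measured MAM-type genes, Ptprk (-0.17) and Ptpru (-0.14), which have the same kind of outer part, did not pass and lay within or near the background range.

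Ptpre encodes the epsilon phosphatase, known in macrophages and osteoclasts and made as a membrane and a cytosolic form from different start sites. It read 9.71 and 9.66 on the GM-CSF arrays and 8.43 and 8.33 on the M-CSF arrays. The groups lay far apart and each pair lay close together. Its difference was 1.30 ± 0.11 (SE, n = 2 per group, interval 1.05 to 1.56, adjusted p = 0.00121 with limma), or 2.47-fold higher in GM-CSF cells. It stayed between 1.26 and 1.35 when each array was left out and passed each time (adjusted p of up to 0.0468). Its closest relative Ptpra, the alpha phosphatase that activates Src-family kinases, read 8.91 and 8.86 against 8.94 and 8.78. The groups overlapped there, with a difference of 0.02 (interval -0.25 to 0.29, adjusted p = 0.952 with limma), whose sign turned in the fits without GM-CSF replicate 1 or M-CSF replicate 2 and after centring on the genes tested.

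The stretches upstream of the start sites of Ptprm and Ptpre are shown because these genes had the largest differences in opposite directions. Each is the 250 bases before a RefSeq start site (build GRCm38.p6), in lower case, with matches to any of 8 short motifs in capitals. The motifs were the cAMP element TGACGTCA (in 1.55% of 32851 such stretches), the AP-1 element TGANTCA (6.75%), the STAT element TTCNNNGAA (7.02%), the PU.1 element GAGGAAGT (2.44%), the E-box CACGTG (6.02%), TATAAA (12.37%), the EGR element GCGTGGGCG (0.54%) and CCAAT (33.85%), on both strands. Ptpre has 3 such stretches, and the array does not tell which start was used. Matches in Ptpre are CCAAT on the opposite strand and a STAT element in the second stretch, at positions -197 to -189 from the start, and an AP-1 element and TATAAA in the last. No motif of the 8 has its letters in the stretch of Ptprm.
Ptprm (chr17:67354460-67354709, minus strand): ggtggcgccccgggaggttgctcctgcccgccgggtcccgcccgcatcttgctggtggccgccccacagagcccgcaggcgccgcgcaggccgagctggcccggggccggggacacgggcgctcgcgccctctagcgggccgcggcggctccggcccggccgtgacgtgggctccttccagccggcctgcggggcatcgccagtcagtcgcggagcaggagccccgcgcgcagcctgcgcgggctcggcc
Ptpre start 1 (chr7:135537574-135537823, plus strand): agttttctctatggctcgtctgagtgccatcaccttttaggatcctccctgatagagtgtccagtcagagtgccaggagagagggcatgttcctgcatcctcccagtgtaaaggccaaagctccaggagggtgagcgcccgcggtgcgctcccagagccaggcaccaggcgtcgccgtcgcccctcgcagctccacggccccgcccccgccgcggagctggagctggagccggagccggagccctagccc
Ptpre start 2 (chr7:135593231-135593480, plus strand): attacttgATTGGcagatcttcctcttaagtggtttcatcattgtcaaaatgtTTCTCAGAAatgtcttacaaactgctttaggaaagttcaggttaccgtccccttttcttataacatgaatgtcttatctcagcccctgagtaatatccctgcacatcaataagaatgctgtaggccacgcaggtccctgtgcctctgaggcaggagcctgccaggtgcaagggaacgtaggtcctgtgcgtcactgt
Ptpre start 3 (chr7:135605578-135605827, plus strand): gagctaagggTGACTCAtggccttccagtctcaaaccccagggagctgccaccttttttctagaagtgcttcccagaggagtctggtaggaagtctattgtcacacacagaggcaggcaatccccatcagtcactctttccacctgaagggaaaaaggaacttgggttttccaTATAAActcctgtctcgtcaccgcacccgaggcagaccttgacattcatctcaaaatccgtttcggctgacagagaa

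Several other receptor members had group differences that missed the threshold. Ptprj, also called CD148, a receptor phosphatase of blood cells that acts on Src-family kinases, read 11.70 and 12.08 on the GM-CSF arrays and 12.43 and 12.46 on the M-CSF arrays. The groups did not overlap, and GM-CSF replicate 1 was the lowest. The difference was -0.55 ± 0.15 (SE, interval -0.91 to -0.20) and did not pass (adjusted p = 0.0679 with limma). It passed with trended and robust variances (0.0383) and without GM-CSF replicate 2 (-0.74), but not without GM-CSF replicate 1 (-0.37, 0.0778). Its second probe set read 11.31 and 11.85 against 12.29 and 12.31. Ptprs, a LAR-type receptor for matrix proteoglycans, read 7.86 and 7.82 against 7.57 and 7.28, a difference of 0.42 (interval 0.10 to 0.74) that did not pass (adjusted p = 0.105 with limma). Ptpro, a fibronectin-type receptor phosphatase known from kidney podocytes and macrophages, read 7.05 and 7.45 against 7.04 and 6.85, a difference of 0.30 (interval -0.09 to 0.70). Its groups did not overlap, though GM-CSF replicate 1 and M-CSF replicate 1 were almost level. Ptprs passed without GM-CSF replicate 2 (0.048) and Ptpro without GM-CSF replicate 1 (0.0203).

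Ptprc encodes CD45, the phosphatase of all white blood cells, which acts on Src-family kinases. Both groups were sorted for the CD45 protein, so a like level is no independent result. It read 10.81 and 11.04 on the GM-CSF arrays and 11.06 and 10.93 on the M-CSF arrays, which overlap, with a difference of -0.07 (interval -0.37 to 0.24, adjusted p = 0.805 with limma). Its sign turned without GM-CSF replicate 1 (0.04). The remaining receptor members, Ptprf, Ptprg, Ptprh, Ptprk, Ptprn, Ptprn2, Ptprq, Ptpru and Ptprv among those tested, had differences between -0.26 and 0.10. Ptprn and Ptprn2 are proteins of secretory vesicles with little known phosphatase activity. Over all 20 receptor members the median difference was 0.014, and 8 had both group means within background.

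**Figure D2:**
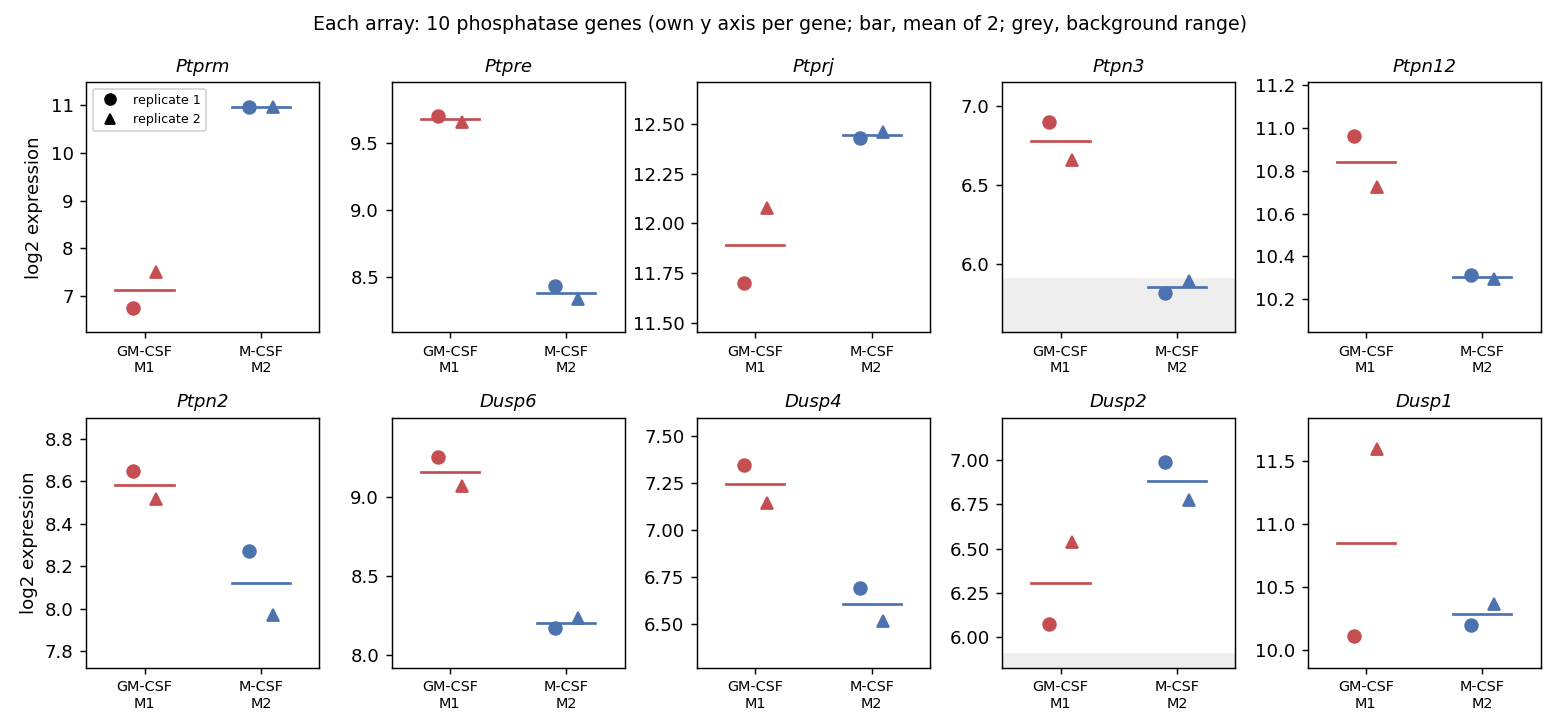
Log2 expression on each array (y axis, a separate scale for each gene) of 10 phosphatase genes in the 2 groups, with circles for replicate 1, triangles for replicate 2, bars for group means and grey for the background range. In Ptprm, Ptpre, Ptpn3, Ptpn12, Dusp6 and Dusp4 the groups lie clearly apart, and in Dusp1 GM-CSF replicate 2 alone is high.

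Of the 15 non-receptor members tested, Ptpn3 and Ptpn12 were higher in GM-CSF cells and 13 did not pass. Ptpn3 encodes a cytoskeleton-associated phosphatase with FERM and PDZ domains. It read 6.90 and 6.66 on the GM-CSF arrays and 5.82 and 5.89 on the M-CSF arrays. Both M-CSF values lay at or under the background bound, so the size of the fold depends on the background. The difference was 0.92 ± 0.12 (SE, n = 2 per group, interval 0.62 to 1.22, adjusted p = 0.00723 with limma), or 1.90-fold. It did not pass without M-CSF replicate 1 (adjusted p = 0.125) or M-CSF replicate 2 (0.115). Ptpn3 is the member with the most probe sets, 12, and in 12 of 12 both GM-CSF arrays lay above both M-CSF arrays. Their differences ran from 0.16 to 1.20 with a median of 0.47, and 7 of the 12 had a GM-CSF mean above the bound against 2 with such an M-CSF mean. Probe sets of a gene share their RNA and are not replicates. The other members with FERM domains, Ptpn4 (0.33), Ptpn14 (0.04) and Ptpn21 (0.07), did not pass, and Ptpn13 was too dim to be tested. Ptpn4 passed without GM-CSF replicate 2 (0.00773).

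**Figure D3:**
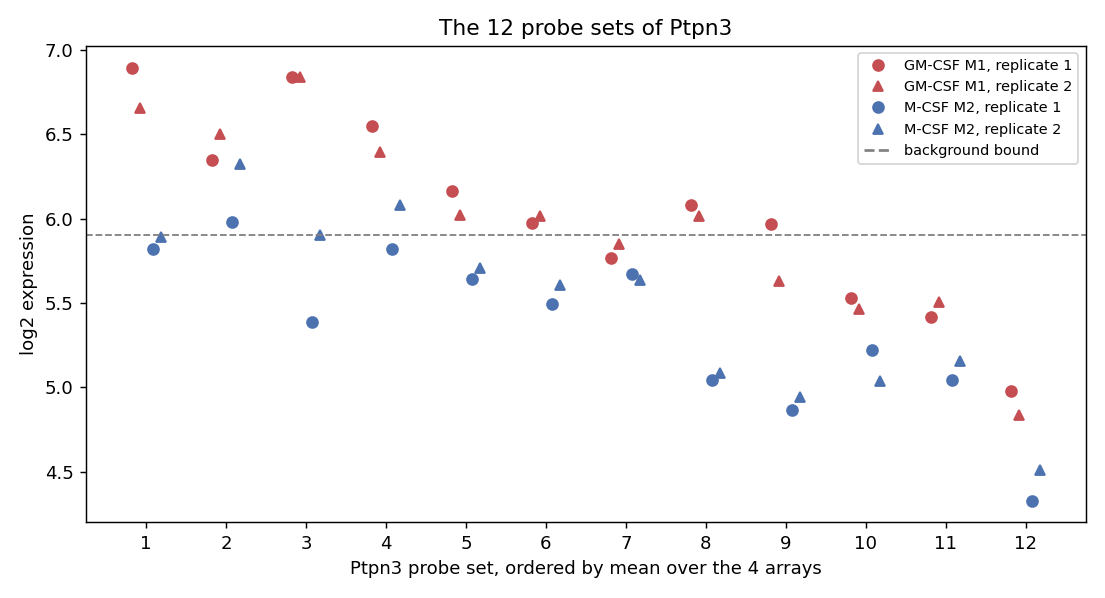
Log2 expression (y axis) on each of the 4 arrays for the 12 probe sets of Ptpn3 (x axis, ordered by mean level), in red for GM-CSF M1 and blue for M-CSF M2, with circles for replicate 1 and triangles for replicate 2. In 12 of 12 probe sets both GM-CSF points lie above both M-CSF points, and the dashed line at 5.90 is the background bound.

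Ptpn12 encodes a PEST-type phosphatase that acts on focal adhesion proteins and the kinase Pyk2 and takes part in macrophage movement. It read 10.96 and 10.72 on the GM-CSF arrays and 10.31 and 10.29 on the M-CSF arrays, with no overlap and with the M-CSF arrays almost level. The difference was 0.54 ± 0.12 (SE, interval 0.24 to 0.84, adjusted p = 0.0436 with limma), or 1.45-fold. This call lay near the threshold. It was lost with no filter (0.0613), after centring on the medians of the genes tested (0.0567) and without M-CSF replicate 1 (0.281) or replicate 2 (0.280). The other PEST-type genes did not pass. Ptpn22, which partners with the kinase Csk and restrains antigen-receptor signalling, read 7.60 and 8.03 against 8.12 and 8.06 (difference -0.28, interval -0.67 to 0.11). Ptpn18 read 6.55 and 6.78 against 6.67 and 6.52 (0.07, interval -0.24 to 0.39).

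The best-known regulators of cytokine signalling in this class did not pass in any fit with all 4 arrays. Ptpn6 encodes SHP-1, which inhibitory receptors recruit to stop kinase signals, and read 10.37 and 10.80 on the GM-CSF arrays and 10.75 and 10.79 on the M-CSF arrays. GM-CSF replicate 1 was low and the other 3 arrays lay close together, with a difference of -0.19 (interval -0.57 to 0.20, adjusted p = 0.545 with limma). Without that array it was 0.03. Ptpn1, the phosphatase of the endoplasmic reticulum that acts on JAK2 and the insulin receptor, had the same layout, at 10.40 and 10.94 against 10.89 and 10.82. Its difference of -0.19 (interval -0.64 to 0.26) became 0.08 without GM-CSF replicate 1 and -0.46, past the threshold (0.0232), without GM-CSF replicate 2. Ptpn11 encodes SHP-2, which relays growth factor signals to ERK, and read 9.31 and 9.61 against 9.36 and 9.37, a difference of 0.10 (interval -0.23 to 0.42, adjusted p = 0.731 with limma). Ptpn2, a nuclear relative of Ptpn1 that acts on JAK and STAT proteins, read 8.65 and 8.52 against 8.27 and 7.97. Its groups did not overlap, and its difference of 0.46 (interval 0.13 to 0.80) did not pass (adjusted p = 0.0928 with limma), though it passed without GM-CSF replicate 2 (0.0192). Ptpn6 and Ptpn22 passed as lower without GM-CSF replicate 2 (0.0476 and 0.0148). Of the rest, Ptpn5, Ptpn7, Ptpn9 and Ptpn23 had differences between -0.15 and 0.20, and the median over all 17 members was 0.048.

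Of the 21 dual-specificity members tested, Dusp6 and Dusp4 were higher in GM-CSF cells and 19 did not pass. Dusp6 encodes a cytoplasmic phosphatase of ERK whose gene is itself switched on by ERK signalling. It read 9.25 and 9.07 on the GM-CSF arrays and 8.17 and 8.23 on the M-CSF arrays. Both GM-CSF values stood well above both M-CSF values. The difference was 0.96 ± 0.12 (SE, n = 2 per group, interval 0.67 to 1.24, adjusted p = 0.00515 with limma), or 1.94-fold. Dusp4, a nuclear phosphatase of ERK and JNK, read 7.34 and 7.14 against 6.69 and 6.52, which did not overlap. The difference was 0.64 ± 0.13 (interval 0.33 to 0.95, adjusted p = 0.0283 with limma), or 1.56-fold. Without M-CSF replicate 1 or 2 neither gene passed (adjusted p = 0.105 and 0.0956 for Dusp6, 0.166 and 0.251 for Dusp4).

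The other MAP kinase phosphatases, 8 of the 10 in this class, did not pass. Dusp7, the closest cytoplasmic relative of Dusp6, read 10.18 and 9.96 on the GM-CSF arrays and 10.13 and 10.12 on the M-CSF arrays. These overlap, with a difference of -0.06 (interval -0.35 to 0.23, adjusted p = 0.828 with limma). Dusp9, the remaining cytoplasmic member, differed by 0.07. Among the phosphatases of JNK and p38, Dusp16 read 9.09 and 9.25 against 8.97 and 8.79, a difference of 0.29 (interval -0.01 to 0.59). Dusp10 read 6.93 and 6.75 against 6.92 and 6.80 (-0.02, interval -0.31 to 0.27), and Dusp8 differed by -0.05. Dusp2, a nuclear phosphatase induced in activated immune cells, read 6.08 and 6.54 against 6.99 and 6.78. It did not overlap and was the lowest difference of the class, -0.58 (interval -1.01 to -0.15), without passing (adjusted p = 0.0998 with limma). It passed without GM-CSF replicate 2 (-0.81, 0.00057). Dusp5, a nuclear ERK phosphatase, read 7.58 and 6.93 against 6.77 and 7.07, so only GM-CSF replicate 1 was high, and the difference was 0.0045 without that array and 0.66, past the threshold (0.00438), without GM-CSF replicate 2.

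Dusp1, the immediate-early nuclear phosphatase of p38 and JNK that limits cytokine production, had the widest gap within a group of all 61 members. It read 10.11 and 11.60 on GM-CSF replicates 1 and 2 and 10.20 and 10.37 on the M-CSF arrays. GM-CSF replicate 2 alone was high, and GM-CSF replicate 1 lay below both M-CSF arrays. The difference was 0.57 ± 0.44 (SE, n = 2 per group, interval -0.50 to 1.63, adjusted p = 0.499 with limma). Leaving out GM-CSF replicate 1 gave 1.31 and leaving out its pair gave -0.17, so its direction rested on the array kept. Of the 14995 genes tested, 92 had a gap within the GM-CSF pair at least as large. Fos, an immediate-early gene, was also highest on GM-CSF replicate 2 (7.39 and 8.63 against 7.30 and 7.65), while Egr1, another, was level within that pair (7.84 and 7.86 against 7.04 and 7.34). The part of RNA handling or of stress during sorting in these values was not tested.

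**Figure D4:**
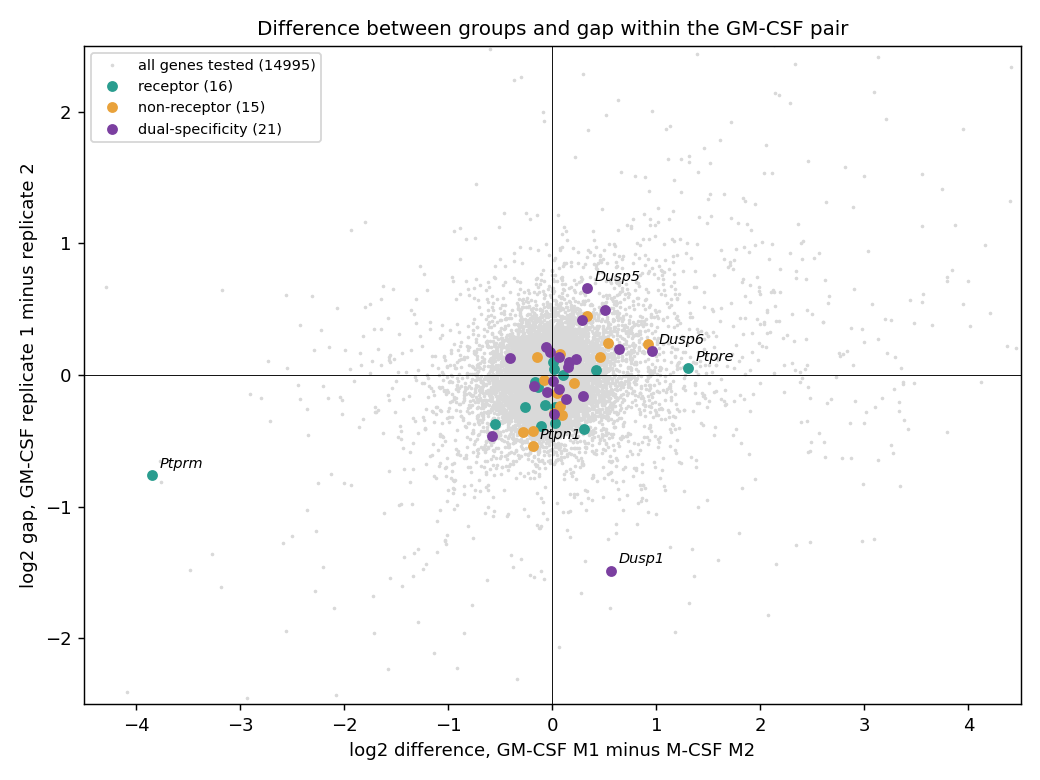
Log2 difference between groups (x axis) against the log2 gap between GM-CSF replicates 1 and 2 (y axis), with grey points for the 14995 genes tested (32 lie outside the axes) and coloured points for the 52 members tested. Dusp1 (gap -1.49) lies far below the other members, Ptprm combines a large difference with a gap of -0.76, and Ptpre lies near a gap of 0.

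The stretches upstream of Dusp6 and Dusp1 are shown because both genes respond quickly to signalling, and their arrays differ in layout. Capitals mark matches to the same 8 motifs. Dusp1 holds the cAMP element TGACGTCA at positions -143 to -136 from the start and an E-box at -126 to -121. Dusp6 holds CCAAT on the opposite strand, at positions -46 to -42.
Dusp6 (chr10:99262981-99263230, plus strand): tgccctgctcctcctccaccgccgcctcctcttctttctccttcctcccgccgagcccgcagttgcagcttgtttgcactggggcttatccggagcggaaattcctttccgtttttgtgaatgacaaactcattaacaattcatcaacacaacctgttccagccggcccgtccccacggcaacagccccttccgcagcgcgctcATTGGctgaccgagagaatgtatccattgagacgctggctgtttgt
Dusp1 (chr17:26508473-26508722, minus strand): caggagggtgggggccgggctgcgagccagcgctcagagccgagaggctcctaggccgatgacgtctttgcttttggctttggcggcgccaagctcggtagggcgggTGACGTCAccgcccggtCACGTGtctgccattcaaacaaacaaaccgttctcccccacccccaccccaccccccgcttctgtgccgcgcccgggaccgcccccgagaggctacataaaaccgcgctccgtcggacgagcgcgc

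The atypical dual-specificity members, mostly small enzymes without the domain that docks on MAP kinases, did not pass in the 11 that were tested (2 at an unadjusted p under 0.05 with limma). Dusp3, which acts on ERK and JNK, read 8.78 and 8.72 on the GM-CSF arrays and 8.57 and 8.64 on the M-CSF arrays, a difference of 0.15 (interval -0.11 to 0.40) with no overlap. Dusp12 (-0.40) and Dusp18 (0.50) had the largest differences and are named after their values were seen. Dusp12 read 6.23 and 6.10 against 6.60 and 6.55, and its second probe set did not separate the groups. Dusp18 read 6.54 and 6.04 against 5.69 and 5.89, with its M-CSF mean within background. Dusp12 passed without GM-CSF replicate 1 (0.0242), and Dusp18 and Dusp19 without GM-CSF replicate 2 (0.00101 and 0.0168). The others tested lay between -0.18 and 0.28, and over all 24 dual-specificity members the median difference was 0.098.

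Leaving out an array moved the number of members called more than any other setting. Without GM-CSF replicate 1 and replicate 2, 9 and 17 members passed, while 17.6% and 21.4% of all genes tested did. With 1 GM-CSF array left, all of the spread comes from the M-CSF arrays, which lay closer together, so those larger counts lend no weight to a call. The fit without GM-CSF replicate 2 also keeps only the GM-CSF array that stood apart in Xist and Eif2s3y. The part of this in its count was not tested. Without M-CSF replicate 1 and replicate 2, 2 members passed each time, Ptprm and Ptpre, against 1.74% and 1.55% of all genes tested.

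Genes that act beside the phosphatases are given by list, each count to be read against the 10.7% of all genes called, and no list was tested against other genes. Of 34 tested genes of other families with a tyrosine-phosphatase fold or the like activity, 4 passed as higher and 2 as lower, while 28 missed the threshold (median difference -0.032, against -0.013 over all genes tested). Ptp4a3, a membrane-bound phosphatase linked to cell migration, read 7.53 and 7.80 on the GM-CSF arrays and 9.21 and 9.47 on the M-CSF arrays. It was lower by -1.67 ± 0.15 (SE, adjusted p = 0.0015 with limma) and passed without each array in turn. Cdc25b, which activates cell-cycle kinases, was higher by 0.94, Mtm1, a lipid phosphatase, by 0.69 and Cdc14a, another cell-cycle phosphatase, by 0.66. These 3 did not pass without M-CSF replicate 1 (adjusted p = 0.106, 0.106 and 0.117) or replicate 2 (0.136, 0.203 and 0.203).

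Tyrosine kinases, which the phosphatases oppose, differed in both directions. Of 18 non-receptor tyrosine kinases tested, 3 passed as higher and 2 as lower, while 13 missed the threshold (median difference 0.068). Jak2, the kinase of the GM-CSF receptor and a Ptpn1 substrate, read 10.25 and 10.52 on the GM-CSF arrays and 8.59 and 8.39 on the M-CSF arrays. It was higher by 1.90 ± 0.14 (SE, adjusted p = 0.000856 with limma). Fyn, a Src-family kinase, was lower by -2.15 ± 0.12 (6.23 and 6.02 against 8.34 and 8.21, adjusted p = 0.000403), and Fer, a kinase of cell junctions, lower by -1.32 ± 0.10 (adjusted p = 0.00101, limma). Jak2, Fyn and Fer passed without each array in turn. Src was higher by 1.20 ± 0.12 (7.93 and 7.86 against 6.80 and 6.58) and did not pass without M-CSF replicate 2 (0.0635).

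Among the MAP kinases, the substrates of the dual-specificity class, 1 of 11 tested was lower and 10 did not pass, with a median difference of -0.204. That gene was Mapk11, a p38 kinase, at 5.65 and 6.07 on the GM-CSF arrays and 6.97 and 6.59 on the M-CSF arrays (-0.92 ± 0.19). Its GM-CSF mean lay within the background range, so the size of this difference depends on the background. Of 6 MAP kinase kinases, Map2k1, which activates ERK, was higher by 0.84 ± 0.13 (9.58 and 9.71 against 8.91 and 8.69) and Map2k3, which activates p38, by 0.46 ± 0.11, and 4 did not pass. With no filter Map2k3 was no longer called (1 of 6 higher). Without M-CSF replicate 1 and replicate 2, none of these 3 passed (0.274 and 0.137 for Mapk11, 0.09 and 0.147 for Map2k1, 0.257 and 0.296 for Map2k3, limma).

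Of 16 genes that ERK signalling is known to induce or that dampen it, 4 passed as higher and 1 as lower, while 11 missed the threshold (median difference 0.171). Phlda1 was higher by 1.45 ± 0.19 (7.69 and 7.17 on the GM-CSF arrays, 6.07 and 5.88 on the M-CSF arrays). Ier3 was higher by 1.04 ± 0.20 and Errfi1, an inhibitor of the EGF receptor, by 0.83 ± 0.15, and Etv5, an ETS transcription factor, was lower by -1.03 ± 0.18. Egr1 was the other gene that was higher (0.66). These 5 did not pass without M-CSF replicate 1 or 2 (adjusted p of 0.0983 to 0.244, limma). Spry1 (0.25), Spry2 (-0.05), Spry4 (-0.11) and Spred1 (0.05), feedback inhibitors of the ERK pathway, are named beside Dusp6 after their values were seen and did not pass.

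Receptors and adaptors that recruit SHP-1 or SHP-2, the products of Ptpn6 and Ptpn11, moved in both directions. Of 20 tested, 4 passed as higher and 3 as lower, while 13 missed the threshold (median difference -0.115). Cd300lf, an inhibitory receptor of myeloid cells, read 10.11 and 9.83 on the GM-CSF arrays and 7.85 and 7.66 on the M-CSF arrays (2.22 ± 0.14, adjusted p = 0.000527 with limma). Pecam1, an adhesion receptor, was lower by -1.56 ± 0.13 (7.15 and 7.00 against 8.75 and 8.52, adjusted p = 0.00122), and both passed without each array in turn. Fcgr2b, the inhibitory receptor for IgG, was higher by 1.04 ± 0.10, and Cd300a, another inhibitory receptor, lower by -0.93 ± 0.20. Fcgr2b and Cd300a did not pass without M-CSF replicate 1 (0.0626 and 0.246) or replicate 2 (0.0736 and 0.269).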

How the data were processed

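The authors deposited log2 expression values per probe set from 1-colour arrays of 4 samples, and per the submitters' processing notes the software was Affymetrix Expression Console 1.1, with RMA. RMA brings arrays to one distribution and compresses differences of dim genes. The level at which it was run and the genome build are not given in the sources used here. RNA input was 300 ng per sample, per the labels' protocols.

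Of 35556 probe sets, 21789 had 1 gene symbol in the platform annotation. Each gene was represented by the probe set with the highest mean, and genes entered when at least 2 of 4 arrays exceeded that array's 30th percentile, which left 14995. No member passed through a single group. Differences were tested with limma 3.58.1 (functions lmFit and eBayes, R 4.3.3) in a two-sided test. The arrays left 2 residual degrees of freedom, and the prior added 4.17. P-values were adjusted by Benjamini-Hochberg over all genes tested, at 0.05. Python 3.11.15, pandas 2.3.3 and matplotlib 3.10.9 made tables and plots.

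The members and lists were chosen with earlier results of these data known. Members are named when past the threshold, at least 2-fold apart, or on a list of well-studied macrophage phosphatases (24 in all). Other members are given by counts, ranges or differences, except that Dusp12 and Dusp18, and single values of Ptpn4 and Dusp19, were chosen after their values were seen. Up to 4 called genes per pathway list are named, with Egr1, Fos and the Sprouty and Spred genes added after seeing the data. The number of arrays limits the precision. Upstream sequences are from RefSeq (49 of 61 members matched). In a simulation with 14995 genes, 50 of them changed at each size, the fit recovered 0% of log2 changes of 0.5, 54% of 1, 84% of 2 and 98% of 3. It changed far fewer genes than the 1605 called in the data and gave both groups the same spread. Its rates are therefore not those of this comparison. Other settings were no filter, a 50th percentile filter, quantile normalization, centring on array medians, means of probe sets, trended and robust variances, a replicate block and leaving out each array. Centring on the medians of the genes tested was added after seeing the data.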

Additional observations from a re-analysis of the deposited data

How the results depend on the processing

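The calls of Ptprm and Ptpre held under all settings run. Those of Ptpn3, Dusp6 and Dusp4 held under all but the fits without an M-CSF array, and that of Ptpn12 was also lost with no filter and after centring on the medians of the genes tested, so 1 non-receptor member passed under each of these. With single arrays left out, the counts called ran from 233 to 3205 for all genes, from 2 to 4 for receptor, 0 to 7 for non-receptor and 0 to 6 for dual-specificity members. Where no non-receptor or dual-specificity member passed, without M-CSF replicate 1 or 2, 3 and 2 non-receptor and 2 and 4 dual-specificity members had an unadjusted p under 0.05 (limma). Over those fits the log2 difference ran from -0.174 to 1.311 for Dusp1, -0.111 to 0.068 for Dusp10, -0.166 to 0.05 for Dusp7, -0.46 to 0.08 for Ptpn1, -0.054 to 0.249 for Ptpn11, -0.047 to 0.19 for Ptpn18, -0.398 to 0.026 for Ptpn6, -0.061 to 0.097 for Ptpra and -0.182 to 0.045 for Ptprc, so these 9 changed sign. Ptpra also did so after centring on the medians of the genes tested (-0.025). The cause was not tested. With the replicate block 1640 genes were called and no member's call changed. Same-numbered arrays did not clearly deviate together (correlation across genes 0.065), so the numbers are not taken as pairs. Over all other settings, 188 values of the 24 named members kept direction and side of the threshold, 2 lost the call (Ptpn12), 1 gained it (Ptprj) and 1 reversed (Ptpra). A difference of dim genes is limited by their signal over background.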

Other observations

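In each of the 5 members with more than 1 probe set, Ptpn3 included, the differences of all probe sets had one sign. The 2 of Ptprj differed by -0.55 and -0.72 and the 2 of Ptpn2 by 0.46 and 0.17. The 2 of Dusp12 differed by -0.40 and -0.04, and the 2 of Dusp8 by -0.05 and -0.33, where the dimmer probe set was within background. Those of one gene share their RNA.

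Upstream stretches of 49 member genes (66 stretches) were searched for the 8 motifs. The cAMP element was found in 4 of the 66 stretches (1.55% of all 32851), the AP-1 element in 3 (6.75%) and the STAT element in 6 (7.02%). The PU.1 element was in 1 (2.44%), the E-box in 3 (6.02%) and TATAAA in 2 (12.37%). The EGR element was in 0 (0.54%) and CCAAT in 19 (33.85%), which belong to 17 genes. Besides Ptpre, the STAT element was found upstream of Dusp14, Ptpn22, Ptpn23, Ptprh and Ptprj, in Ptprj at positions -90 to -82 from a start. Besides Dusp1, the E-box was found upstream of Ptprs and of Dusp2, in Dusp2 at -109 to -104. A match is a description of letters and says nothing of binding.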
